A study of Drosophila melanogaster with 2 samples.

Results

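The genes described here are 45 Drosophila melanogaster genes that encode transcription factors of embryonic patterning, out of 13945 protein-coding genes on the chromosome arms. They were chosen by name and not by a value in these data, but earlier results of these data were known when they were chosen. For each gene, all peak summits within the gene body or 5 kb on each side of it (its window) were collected, whether they lay at a promoter or not. The peaks come from chromatin immunoprecipitation and sequencing (ChIP-seq) of CG43689, an uncharacterized protein fused to the green fluorescent protein eGFP. Both samples are whole embryos aged 8 to 24 h from transgenic flies of the strain CG43689-GFP, and the precipitation used an antibody against GFP, per the sample description. They are biological replicates 1 and 2 of 1 group, and no other genotype, age or input library was analysed here. Neither the promoter that drives the insertion nor the number of embryos per sample is given in the sources used here. Because whole embryos were used, recovery in few cells and weaker recovery in many cells cannot be told apart.

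Patterning genes form a cascade. Maternal factors such as bicoid set up gradients, gap genes read them in broad domains, pair-rule and segment polarity genes divide the trunk into segments, and Hox genes give each segment its identity with the help of cofactors. Most of these genes act first in the early blastoderm and are used again later in the nervous system, gut, heart and limbs, which form in the ages sampled here. Their regulatory DNA often lies in introns and flanking DNA far from the promoter, so summits away from start sites are counted beside those at promoters.

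The main list, thresholded by the irreproducible discovery rate (IDR) from both replicates together, held 2088 peaks, 2062 of them on the arms. The ranked list it was drawn from held 151546 candidates. Each peak has the authors' signal value, which has a scale of its own in each list, and a deposited score of up to 1000, with 830 as the lowest score in the main list. The replicate 1 list held 1253 peaks and the replicate 2 list 1265. The lists hold no read counts, so the depth of each library is unknown, and no test between conditions was possible. All intervals below are 95% intervals that cover counting error only.

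Of the 45 patterning genes, 11 had a main summit in the window, and 18 distinct summits lay there, none of them shared by a pair of these genes. For the 6 strongest of these genes by signal on arms 2L and 3R, the DNA under the strongest summit is printed so that its base composition and motifs can be seen. Each sequence is the 101 bases centred on the summit, read from the RefSeq Release 6 genome (the dm6 assembly), 5′ to 3′ along the strand on which the gene is transcribed. Capitals mark matches on either strand to the letters searched, which were those of homeodomain cores (TAAT and the longer TAATTA), the TATA box (TATAAA), the A/T-rich letters AAATAT and those of GATA factors (GATAA), GA repeats (GAGAG), CA repeats (CACACA), the letters CCCTC and a homothorax type site (TGACAG). GGTCACACT was added after the sequences had been seen. A match is a description of the letters and not a binding site. The slp2 sequence (2L:3832469-3832569, plus strand) lies in intergenic DNA upstream of the gene. Those of bowl (2L:3771463-3771563, plus strand), tin (3R:21378707-21378807, plus strand), bcd (3R:6759512-6759612, minus strand) and fkh (3R:28585445-28585545, minus strand) lie at the genes' own promoters, and that of hth (3R:10560730-10560830, minus strand) lies in an intron.
slp2: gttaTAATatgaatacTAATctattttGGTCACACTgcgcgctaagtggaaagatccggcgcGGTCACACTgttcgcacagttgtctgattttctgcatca
bowl: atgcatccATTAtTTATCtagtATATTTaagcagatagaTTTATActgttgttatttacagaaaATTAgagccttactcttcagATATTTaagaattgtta
tin: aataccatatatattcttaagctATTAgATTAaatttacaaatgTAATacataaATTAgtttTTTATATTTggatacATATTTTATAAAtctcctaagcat
hth: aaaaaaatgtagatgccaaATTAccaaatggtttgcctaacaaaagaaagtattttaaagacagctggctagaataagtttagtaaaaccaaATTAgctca
bcd: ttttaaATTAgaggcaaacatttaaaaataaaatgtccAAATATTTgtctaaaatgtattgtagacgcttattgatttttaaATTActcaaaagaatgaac
fkh: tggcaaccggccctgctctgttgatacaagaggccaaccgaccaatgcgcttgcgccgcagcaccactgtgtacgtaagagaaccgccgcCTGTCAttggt

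Most of these sequences are rich in A and T. The tin sequence has 83 A or T bases among 101 and the longest unbroken A/T run there is 13 bases, while the bcd sequence has 79 and a run of 15. In bowl there are 76 and in hth 71. The slp2 sequence has 57 and carries the letters GGTCACACT 2 times, both in the direction of transcription. In fkh only 41 of the bases are A or T, no run exceeds 3, and the single match is to TGACAG, which appears on the other strand as CTGTCA.

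The share of patterning genes with a main summit was near that of protein-coding genes as a whole. It was 24.4% of the patterning genes (11 of 45, Wilson interval 14.24% to 38.67%) and 27.4% of all protein-coding genes (3815 of 13945). A fixed list of 55 other patterning and cell fate transcription factor genes gave 14.5% (8 of 55, 7.559% to 26.16%). Because long windows catch more summits, the same shares were taken by window length. In windows under 15 kb the share was 17.4% of patterning genes (4 of 23) and 24.1% of all genes, in windows of 15 to 30 kb it was 20% (2 of 10) and 33.8%, and in windows over 30 kb it was 41.7% (5 of 12) and 45.8%. The patterning genes lay below all genes in each length class, but in each class the Wilson interval of their share contained the value of all genes.

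Promoters and distant DNA were read separately. A main summit lay within 500 bp of one of the gene's own start sites at 6 patterning genes, 13.3% (6.257% to 26.18%), against 8.36% of all protein-coding genes, and the other patterning list had 2 such genes, 3.64%. A main summit in the window but over 500 bp from every annotated start site was held by 6 patterning genes as well, 13.3%, against 10.6% of all genes and 14.5% of the other patterning list. Both shares of the patterning genes have intervals that contain the value of all genes. In a count chosen after the data were seen, each main summit was given only to the gene with the nearest start site. This was done at any distance, without the limit of the window, so it is not the same measure as the shares above. By this count 11 patterning genes held 1 or more, 24.4%, against 10% of all protein-coding genes. Here ems, a head gap gene, gained a summit from outside its window and cad lost its own. Patterning genes are long, with a median window of 14.78 kb against 12.17 kb over all protein-coding genes, and whether length or the spacing of neighbouring genes bears on the nearest start count was not tested.

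**Figure D1:**
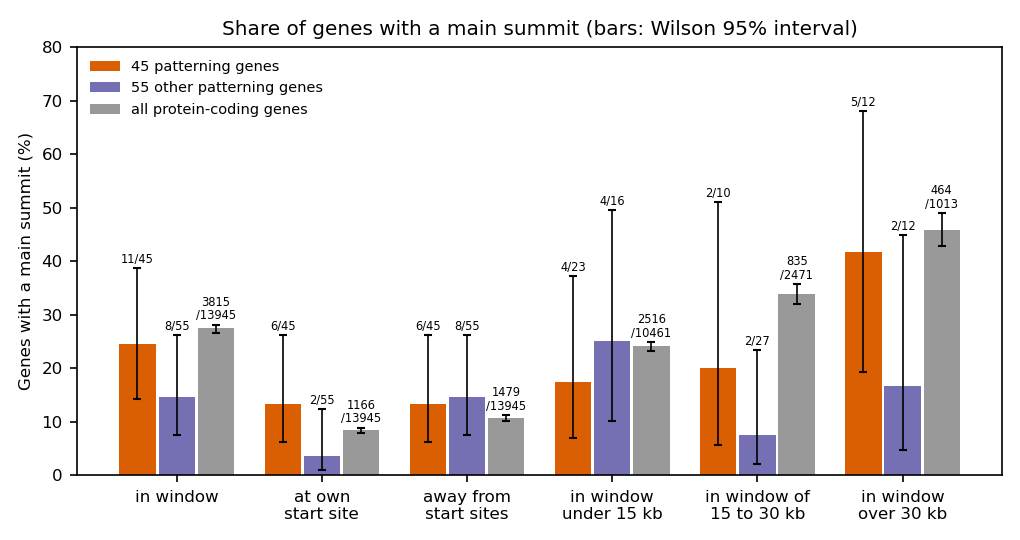
Share of genes with a main summit (y axis, percent) for the 45 patterning genes, the 55 other patterning genes and all protein-coding genes; lines are Wilson 95% intervals and the fractions give the counts. The intervals of the 45 patterning genes contain the values of all genes in all 6 classes shown.

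Counted by length of DNA, the joined windows of the patterning genes (1212 kb) held 1.485 main summits per 100 kb (exact Poisson interval 0.88 to 2.347). The chromosome arms held 1.54, the joined windows of all protein-coding genes 1.742, and the windows of the other patterning list 0.8646. Ranked candidates were at 120.3 per 100 kb in the patterning windows and 110.9 on the arms. The windows of all protein-coding genes had 113.8 and those of the other patterning list 122.5. For every 1000 candidates there were 12.35 main summits at the patterning genes and 13.89 on the arms. There were 15.3 in the windows of all protein-coding genes and 7.06 in those of the other patterning list. The windows make up 0.9055% of the arms. They held 8 of the 991 arm summits among the strongest 1000 candidates (0.807%), 41 of 4905 among the strongest 5000 (0.836%) and 243 of 19790 among the strongest 20000 (1.23%, 1.084% to 1.391%). Among the strongest 2000 they held 0.919%, and among the strongest 10000 they held 1.1% (0.9165% to 1.331%). The intervals for the strongest 1000, 2000 and 5000 contain the share of DNA, and those for the strongest 10000 and 20000 lie above it. In the pooled list the density of main summits at patterning genes was near that of the arms. In the list of each replicate alone it was lower than that of the arms, at 0.5774 per 100 kb (0.2322 to 1.19) against 0.9284 in replicate 1 and 0.7424 (0.3395 to 1.409) against 0.9292 in replicate 2, and both intervals contain the arm value.

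The 11 genes with a main summit came from all roles but 1. They were the Hox genes Antp and Abd-B (2 of 8 Hox genes), bcd and cad (2 of 8 maternal and gap genes), cnc (1 of 4 head genes), slp2 and bowl (2 of 9 pair-rule genes with bowl), hth (1 of 3 Hox cofactors), Dll (1 of 4 appendage and neuron identity genes), and tin and fkh (2 of 6 dorsoventral and germ layer genes). None of the 3 segment polarity genes had one. Numbers this small do not rank the roles. With flanks of 10 kb in place of 5 kb, abd-A, btd, opa, slp1, zen and ind were added, for 17 of 45 genes (37.8%), against 39.2% of all protein-coding genes. The summits that slp1 and zen gained were those already counted at slp2 and bcd.

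**Figure D2:**
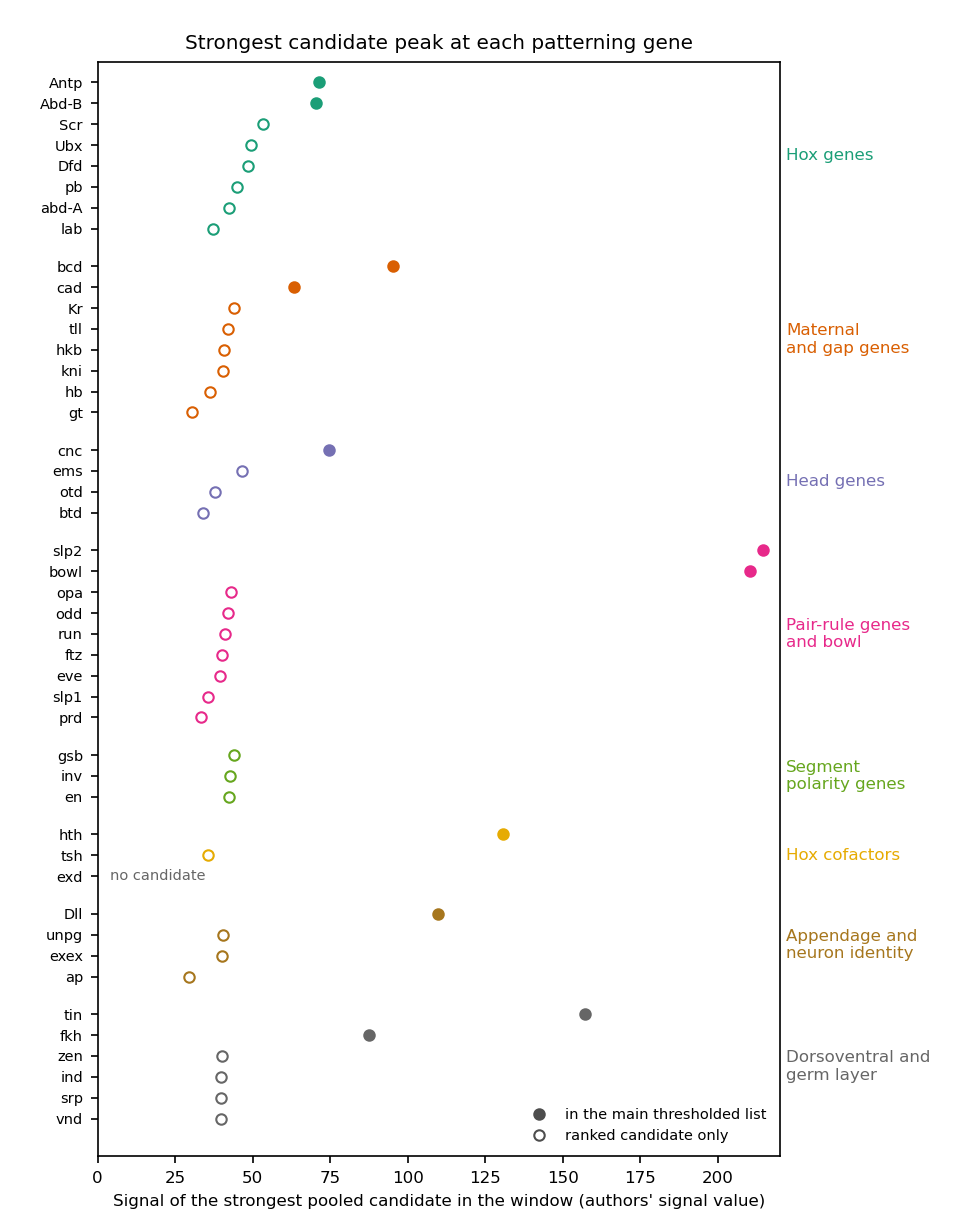
Signal of the strongest pooled candidate in the window of each patterning gene (x axis, the authors' signal value), grouped by role; filled points are in the main list and open points are ranked candidates only. Genes with a main summit reach from 63.29 at cad to 214.6 at slp2, while the others lie between 29.43 at ap and 53.32 at Scr, and exd has no candidate.

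Among the maternal and gap genes, bcd (FBgn0000166) encodes the homeodomain protein that forms the anterior gradient, and its mRNA is made in the mother's ovary. A main peak (3R:6759412-6759711, coordinates of dm6 here and below) peaked 96 bp before the bcd start site, with a pooled signal of 95.18 and rank 919 in the main list. Signal there was 47.58 in replicate 1 and 44.43 in replicate 2, each within that replicate's own ranked list, and the peak was in neither replicate's thresholded list. The peak at cad (FBgn0000251), a homeodomain gene of the posterior, was not at cad itself: its summit (2L:20787262-20787561, signal 63.29) lay downstream of cad and 244 bp upstream of the start site of Pomp, which encodes a proteasome maturation protein. The signals were 31.67 in replicate 1 and 37.41 in replicate 2, again in neither thresholded list. A candidate inside cad (2L:20780828-20781127) had a signal of 53.23 and a score of 715, and was not in the main list. In the cad window the conservative list held 2 summits and the main list 1. The 6 other genes of this role, hb, Kr, kni, gt, hkb and tll, had no main summit, and their strongest candidates had signals between 30.33 at gt and 43.91 at Kr.

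The head gene cnc (FBgn0262975), a bZIP factor of the mandibular and labral segments whose longer isoform acts in oxidative stress, had 1 main summit (3R:23189918-23190217, signal 74.57). It lay 351 bp downstream of a start site, and this start belongs to a transcript that begins in the 3′ part of the annotated gene. Replicate signals were 41.1 in replicate 1 and 41.38 in replicate 2, each within its own list, and neither thresholded list held the peak. The others, otd (annotated as oc), ems and btd, had candidates with signals of 37.8, 46.7 and 34.07.

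The pair-rule group held the strongest summits of all. slp2 (FBgn0004567), a forkhead factor that lies beside its paralog slp1, had the highest signal at any of the 45 genes, 214.6 (2L:3832451-3832556, rank 203 in the main list). Its summit lay 4321 bp upstream of the slp2 start site, in intergenic DNA on the side of slp1, with no start site of any other gene within 1000 bp. The peak was 106 bp wide, against a median of 300 bp in the main list. Both replicate lists held it, with signals of 91.88 in replicate 1 and 119.8 in replicate 2. slp1 had no main summit in its own window and a strongest candidate of 35.69.

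bowl (FBgn0004893), an odd-skipped family zinc finger gene of the hindgut and leg joints, came next with a summit 187 bp upstream of its start site (2L:3771363-3771662, signal 210.3, rank 210). This peak was in both replicate lists, with signals of 83.41 in replicate 1 and 130.5 in replicate 2. A further summit in a bowl intron (2L:3776668-3776967, signal 98.43) lay 2120 bp upstream of a downstream start site. It had 52.92 in replicate 1, where it passed the threshold, and 42.25 in replicate 2, where it did not. The replicate 2 list had 1 more peak in the window (2L:3786250-3786529, signal 41.18), 776 bp upstream of the neighbour bark, a cell junction gene. Its pooled score was 826, just under the lowest score of the main list. The remaining pair-rule genes, ftz, eve, prd, odd, opa and run, had no main summit and candidates between 33.37 at prd and 42.97 at opa. The segment polarity genes en, inv and gsb had 42.45, 42.8 and 43.94, and their joined windows held 107 ranked candidates and 0 main summits, for which the exact Poisson interval reaches 5.115 per 100 kb.

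**Figure D3:**
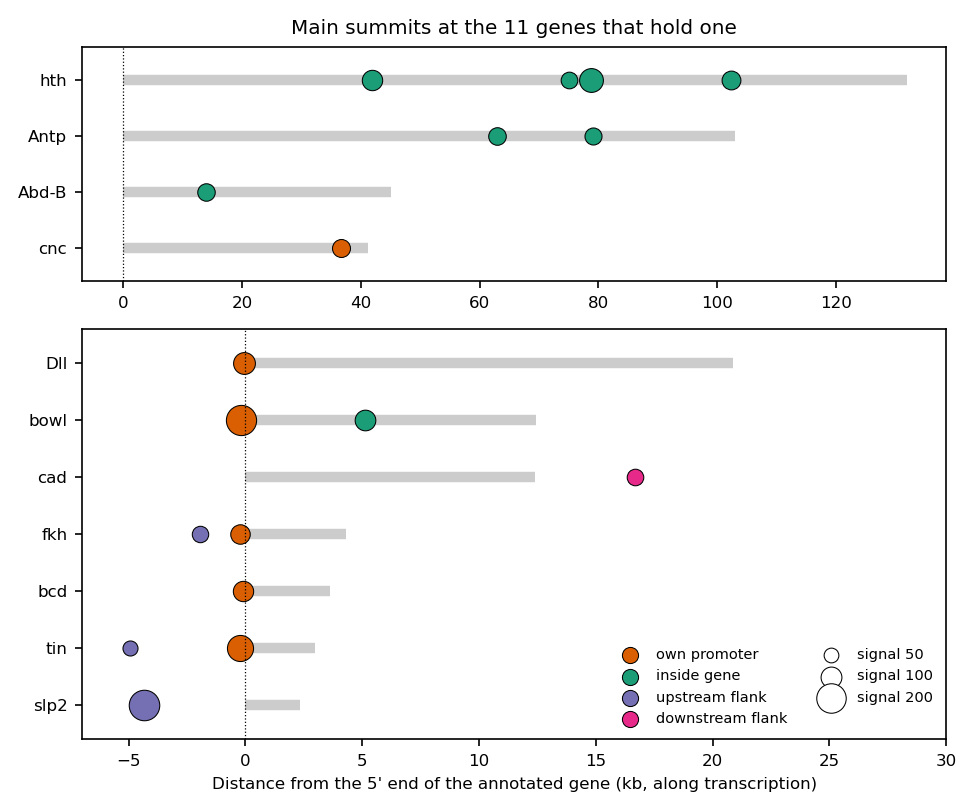
Position of the 18 main summits along the 11 genes that hold one (x axis, kb from the 5′ end of the annotated gene along transcription, grey bar the gene body, upper panel genes over 40 kb). Point area grows with the pooled signal and colour gives the place; 6 summits are at an own promoter, 8 inside a gene, 3 in the upstream flank and 1 in the downstream flank.

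The Hox genes held 3 main summits, all in introns. Over their joined windows (417.5 kb) this was 0.7185 per 100 kb (0.1482 to 2.1), against 1.54 on the arms, and the interval contains the arm value. Antp (FBgn0260642), which specifies the thorax, had a pair of intronic summits. The stronger (3R:6936132-6936431, signal 71.31) lay 3442 bp upstream of the nearest Antp start site, with 34.13 in replicate 1 and 34.34 in replicate 2, and passed in neither replicate. The weaker (3R:6919999-6920298, signal 66.91) had 16.62 in replicate 1, rank 25579 of its ranked list, and 51.99 in replicate 2, rank 922. The ranks in the replicates lay farther apart here than at any other of the 18 summits, and this summit was absent from the conservative list.

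Abd-B (FBgn0000015), the Hox gene of the last abdominal segments, had 1 intronic summit (3R:16958192-16958491, signal 70.44) that lay 1939 bp downstream of a start site. It had 43.23 in replicate 1, where it passed, and 25.95 in replicate 2, where its rank was 5724. A candidate 1488 bp upstream of another Abd-B start site (3R:16969912-16970211) had a signal of 63.56 and a score of 826. It was not in the main list. In the Abd-B window the conservative list held 2 summits and the main list 1. None of the 8 Hox genes had a main summit at an own promoter. Among all protein-coding genes 8.36% had one, so 8 genes are too few to show a difference. Of the other Hox genes, Scr, which specifies the labial and first thoracic segments, had the strongest candidate of all 34 genes without a main summit (3R:6818566-6818865, signal 53.32, score 710, rank 2942). Ubx, of the third thoracic and first abdominal segments, followed with 49.41 and a score of 623, Dfd, a head Hox gene, with 48.6 and 151, and pb, of the mouthparts, with 44.99 and 555. The head gene ems stood between Dfd and pb with 46.7, 430 bp upstream of its start, and a score of 62. Candidates at abd-A and lab were weaker, at 42.37 and 37.33.

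Read as whole complexes, the Antennapedia complex from lab to Antp (347.8 kb with flanks) held 3 main summits, those of bcd and Antp, or 0.8626 per 100 kb (0.1779 to 2.521). The bithorax complex from Ubx to Abd-B (325.6 kb) held 3 as well, or 0.9213 per 100 kb (0.19 to 2.693). The strongest of its 3 (3R:16798729-16799028, signal 109.2) and the weakest (3R:16769482-16769781, signal 68.99) lay between Ubx and abd-A, outside the windows of Ubx, abd-A and Abd-B. Ranked candidates were as dense there as on the arms or denser, with 123.6 and 118.9 per 100 kb in the Antennapedia and bithorax complexes, against 110.9 on the arms.

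The Hox cofactor hth (FBgn0001235) held the most main summits, 4, all in introns of a gene of 132.0 kb. Homothorax is a homeodomain protein that carries Extradenticle into the nucleus, where both bind DNA beside Hox proteins. The strongest hth summit (3R:10560630-10560929) had a pooled signal of 130.6, with 68.79 in replicate 1, where it passed, and 52.81 in replicate 2. The next (3R:10597606-10597905, signal 95.58) had 36.62 in replicate 1 and 53.14 in replicate 2, and passed in neither. The third (3R:10537152-10537451, signal 81.45) had 33.59 in replicate 1 and 43.84 in replicate 2, where it passed. The fourth (3R:10564330-10564629, signal 64.02, score 845) had 29.08 in replicate 1 and 34.04 in replicate 2. They lay 53496, 16520, 76974 and 49796 bp downstream of the nearest hth start site, in that order of signal, and for the first and the third the nearest start of any gene was that of mir-4944. None was in both replicate lists.

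Its partner exd (FBgn0000611) was at the other end. The exd window (14.04 kb) held no pooled ranked candidate, nor did the surrounding 34.73 kb between X:15983643 and X:16018375. Replicate 1 listed 1 candidate in the window and replicate 2 listed 0. Among all protein-coding genes, 619 (4.44%) had no candidate. The zinc finger gene tsh, of trunk identity, had 15 candidates and a strongest signal of 35.46.

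Of the appendage and neuron identity genes, Dll (FBgn0000157), the homeodomain gene of limb development, had a summit 53 bp upstream of its start site (2R:24814619-24814918, signal 109.8, rank 709). Both replicate lists held it, with 49.82 in replicate 1 and 59.89 in replicate 2. The motor neuron gene exex and the neural homeodomain gene unpg had candidates of 40.05 and 40.52. At ap, a LIM homeodomain gene of the wing and of neurons, 7 candidates were ranked, 2.235 per 10 kb of window, and 6.59% of protein-coding genes had as few or fewer per length. Over the patterning genes this density had a median of 12.85 per 10 kb and reached 17.55 at odd.

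The dorsoventral and germ layer genes had 4 main summits in 103.7 kb, all of them at tin and fkh. This is 3.857 per 100 kb (1.051 to 9.876), against 1.54 on the arms, and the interval contains the arm value. tin (FBgn0004110), the NK homeodomain gene of the heart, had a summit 220 bp upstream of its start site (3R:21378607-21378906, signal 157.1, rank 350). It had 56.02 in replicate 1 and 100.4 in replicate 2, and passed in replicate 2 only. Only 6 candidates were ranked in the tin window, and its other main summit (3R:21373880-21374179, signal 52.11, score 882) lay 455 bp from the start of pre-mod(mdg4)-AA, a segment whose RNA is trans-spliced to mod(mdg4). That one was the weakest of the 18, with 30.36 in replicate 1 and 26.62 in replicate 2, and was absent from the conservative list.

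fkh (FBgn0000659), the FoxA gene of the foregut, hindgut and salivary gland, had a summit 231 bp upstream of its start site (3R:28585345-28585644, signal 87.62). Both replicate lists held it, with 42.25 in replicate 1 and 49.92 in replicate 2. A start of the noncoding gene lncRNA:CR43126 on the other strand lay within 1000 bp of it. A weaker summit (3R:28587046-28587345, signal 62.15, score 936) lay 1932 bp upstream of fkh in an exon of that noncoding gene, with 31.55 in replicate 1 and 39.21 in replicate 2, where it passed. zen, vnd, ind and srp had no main summit and close candidates, between 39.77 at vnd and 40.24 at zen.

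All 18 main summits overlapped a ranked peak in each replicate. The ranked lists are long, with 116767 candidates in replicate 1 and 121214 in replicate 2. This overlap was not counted over all main peaks, so it is not read as support. Fewer of the 18 were held by the thresholded lists of the replicates. In both replicate lists were 4 of 18 (22.2%, 9.001% to 45.21%), against 877 of all 2062 main peaks on the arms (42.5%). These 4 were slp2, the bowl promoter, Dll and the fkh promoter. Those in 1 list were 7 of 18 (38.9%), against 29.3% of all main peaks, with 3 in replicate 1 only and 4 in replicate 2 only. Neither list held the other 7 (38.9%, 20.31% to 61.38%), against 28.2%. The conservative list held 16 of 18 (88.9%), against 85.4%. By gene, 6 patterning genes had a replicate 1 summit (13.3%, against 19.7% of protein-coding genes) and 7 a replicate 2 summit (15.6%, against 18.8%).

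**Figure D4:**
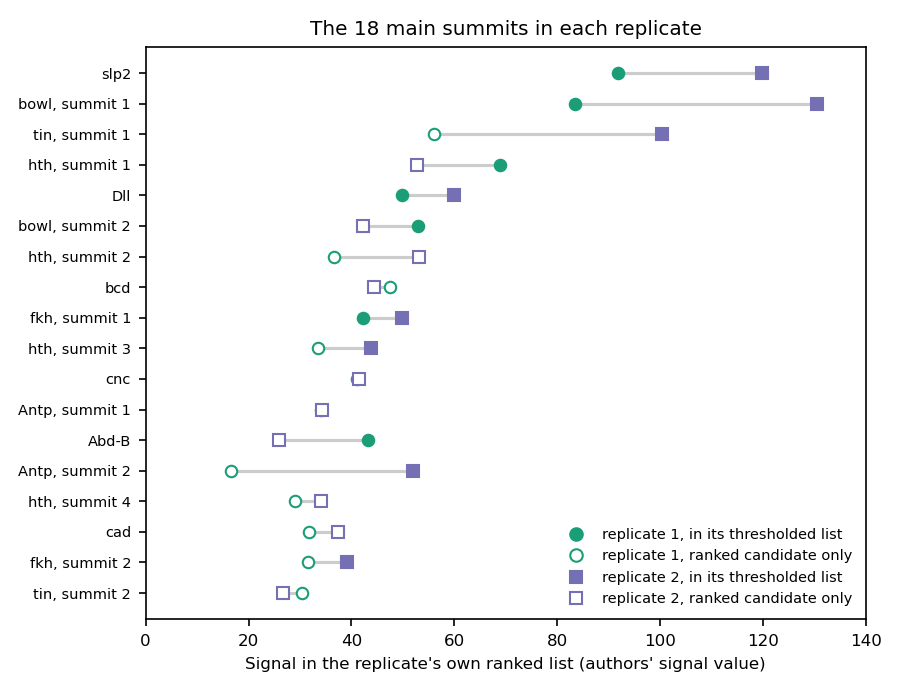
Signal of the 18 main summits in each replicate's own ranked list (x axis, the authors' signal value), ordered by pooled signal; circles are replicate 1, squares replicate 2, and filled points passed that replicate's threshold. slp2 and the first bowl and tin summits stand apart on the right, at 100.4 to 130.5 in replicate 2, and the second Antp summit has 16.62 in replicate 1 and 51.99 in replicate 2.

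Signals at patterning genes had a median near that of the main list. The 18 summits had a lowest value of 52.11, a median of 84.54 and a highest of 214.6, against 2.005, 88.13 and 1040 over all main summits on the arms. At or above the median of the main list were 8 of 18. By place, 8 of 18 lay within 500 bp of any start site (44.4%, against 46.2% of all main summits), 8 in introns (44.4%, against 36.7%), 1 in intergenic DNA (5.56%, against 12.3%) and 1 in another exon (5.56%, against 1.02%). Of the 8 at start sites, 6 were at the patterning gene's own start, 5 of these upstream of it, and 2 at that of another gene. No summit lay in coding sequence or an untranslated region outside the promoters.

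Genes without a main summit were not empty of candidates. Of the 34, all but exd had 1 or more ranked candidates, and over all 45 genes 44 had one in the window (97.8%, against 95.6% of protein-coding genes). At an own start site 39 had one (86.7%, against 74.7%). Strongest candidates at the 33 genes had a median signal of 40.48 and scores between 31 and 710. Just inside the score threshold were the hth, tin and fkh summits at 845, 882 and 936. Just outside it were the candidates at Abd-B and bowl with 826, and an hth candidate with 748.

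Base composition varied among the summits. The GC content of the 101 bases was 33.28% ± 13.57 (SD, n = 18 summits) at patterning genes and 35.02% ± 10.69 over all 2062 main summits, with medians of 28.71% and 32.67%. Below 30% lay 10 of the 18. The highest of these was the strongest hth summit at 29.7%, and 62.2% of all main summits had a higher GC content. The lowest was tin at 17.82%, and 97.6% of all main summits had a higher GC content. At the other extreme, the Dll promoter had 67.33% and the fkh promoter 59.41%, and 7 and 38 of the 2062 main summits had more. Next came the weaker fkh summit at 45.54%, and 16.8% of all main summits had more than that. The Dll and fkh promoter summits were in both replicate lists, while of the 10 below 30% only the bowl promoter was. Replicate support was not counted by GC content over all main summits, so no link between them can be read here.

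**Figure D5:**
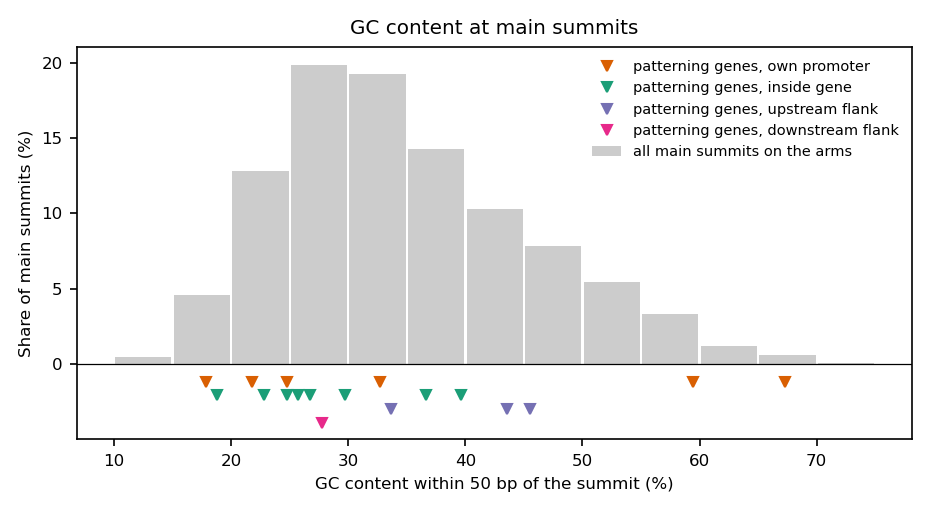
GC content within 50 bp of the summit (x axis, percent) for all 2062 main summits (grey bars, share in percent) and for the 18 at patterning genes (triangles under the axis, coloured by place). Triangles gather between 17.82% and 45.54%, with the fkh and Dll promoters apart at 59.41% and 67.33%.

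Of the 9 motifs other than GGTCACACT, AAATAT was the one whose interval left out the value of all main summits. TATAAA, the letters of the TATA box, was found within 50 bp of 7 of 18 summits (38.9%, 20.31% to 61.38%), against 21.5% of all main summits, and AAATAT at 10 (55.6%, 33.72% to 75.44%), against 32.7%. TAAT, the core of homeodomain sites, was at 15 (83.3%, against 74.3%) and the longer TAATTA, which contains it, at 1 (5.56%, against 9.6%), that of Abd-B. GATAA was at 1 (5.56%, against 23.1%), GAGAG at 3 (16.7%, against 9.31%), CACACA at 1 (5.56%, against 6.01%), CCCTC at 0 (0%, against 6.55%) and TGACAG, a homothorax type sequence, at 1 (5.56%, against 2.96%). Summits with TATAAA or AAATAT had GC contents of at most 36.63%, and the part of composition in these shares was not tested.

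GGTCACACT, the core of the core promoter element known as motif 1 and bound by the factor M1BP, was searched after it had been seen in the slp2 sequence printed above. It was found at 2 of 18 summits, that of slp2 and the weakest hth summit. The slp2 match was fixed by this choice, so 2 of 18 cannot be compared with the shares elsewhere. Those were 8 of all 2062 main summits (0.388%), which include these 2, and 105 of 146366 ranked summits outside the main list (0.0717%). The slp2 summit was the single main summit with more than 1 match, and no other ranked summit had more than 1. Neither of these summits at patterning genes lay within 500 bp of an annotated start site.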

How the data were processed

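Chromatin was sonicated to 200 to 800 bp, per the labels. The sample description gives the antibody as one to GFP, whereas another label field names CG43689. The authors deposited peak lists on dm6, thresholded or ranked by IDR, from each replicate alone and from both together. Each peak has a signal value that the authors gave on a scale of its own per list, and a deposited score of up to 1000. Which aligner and peak caller made them is not given in the sources used here. The last 8 columns of each ranked list were not used, since no name ties them to a sample.

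Summits were assigned to gene windows, own start sites (within 500 bp) and features of the Ensembl 115 annotation, whose coordinates are those of dm6, without transposon and pseudogene models. All 45 genes matched, with otd found as oc through the RefSeq synonyms. Peaks overlapped where they shared 1 bp or more. Sequences came from RefSeq Release 6, and motifs were searched within 50 bp of each summit. Shares have Wilson intervals and densities exact Poisson intervals. With 1 group of 2 samples and no read counts, no test between conditions was run, and the depth per library is unknown. The assignment was tested on simulated data. Named in full were genes with a main summit at an own start site, the 10 strongest, those with the most summits, and the 5 genes without a main summit whose candidates ranked highest. The genes, lists, tests and alternatives were chosen with earlier results of these data known. Python 3.11.15, numpy 2.4.6, pandas 2.3.3, scipy 1.17.1 and matplotlib 3.10.9 were used.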

Additional observations from a re-analysis of the deposited data

How the results depend on the processing

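The share of patterning genes with a main summit in the window (24.4%) was 13.3% to 15.6% in the list of 1 replicate alone, 8.89% with peaks of both replicate lists (14.4% of all genes), and 13.3% with peaks at or above the median signal (17.0% of all genes). The patterning genes were above all protein-coding genes with the gene body alone (11.1% against 6.93%) and with flanks of 2 kb (20% against 18.4%), and below them with flanks of 5 kb and of 10 kb (37.8% against 39.2%). The share with a summit away from start sites was 2.22% with peaks of both replicate lists (4.18% of all genes). The density (1.48 per 100 kb, arms 1.54) was 0.577 to 0.742 in the list of 1 replicate alone (arms 0.928 to 0.929), 0.33 (0.0899 to 0.845) with peaks of both lists (arms 0.655) and 0.66 at or above the median signal (arms 0.772). Of the summits, 75% (3 of 4) lay at a start site with peaks of both lists, against 54.4% of all such peaks. With the gene body alone it was 11.1% (1 of 9, 1.99% to 43.5%), against 35.8% of all main summits inside a protein-coding gene body, a value added after the data were seen, and 46.2% of all main summits. Lists of 1 replicate held fewer peaks, 1253 in replicate 1 and 1265 in replicate 2 against 2088 in the main list. What lowered the shares and densities was not tested. No share or density moved beyond its interval with the conservative list or with flanks of 2 or 10 kb. The same held for shares with promoters of 250 or 1000 bp and with only genes that had a ranked summit. By nearest start sites the patterning share stayed at 24.4%, but the comparison changed. It then lay above the share of all protein-coding genes, whereas the window share lay below. No density was computed for nearest start sites. By gene, 7 of the 11 with a main summit had none among peaks of both replicate lists and 2 kept their count. Leaving out replicate 1 left 4 genes with none, leaving out replicate 2 left 5.

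Unknown depth limits what an absent summit means: it says only that no peak passed the threshold, and no input library was analysed here. No paired analysis was possible because the series has only 1 group.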
